A study of Cynara cardunculus with 12 samples.

Results

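Line L1 and line L18 are callus cultures of cardoon that both overexpress *AtMYB4*, and this comparison asks how far the transcriptomes of independent transformants of 1 construct differ. The comparison takes the 3 L1 replicates and the 3 L18 replicates, 6 of the 12 samples in the series. All genes entered it, 20024 tested of 26505 in the deposited table. Both lines carry *p35S::AtMYB4*, the *Arabidopsis thaliana* MYB4 coding sequence under the constitutive CaMV35S promoter, were at sub-culture 14, and were kept on 10 mg/L PPT and 200 mg/L cefotaxime with transfer about every 21 days. L1 was obtained with *Agrobacterium* strain AGL1 and L18 with strain EHA105. L24, another overexpressing line made with AGL1, and untransformed WT callus at sub-culture 22 are given as reference points, with 3 replicates each. The paper describes WT callus as grown on medium without PPT or cefotaxime and transferred at longer intervals. These conditions cannot be told apart from the transgene in any comparison with WT. Each line is 1 transformation event and its RNA was extracted in triplicate, so strain, insertion site, transgene level and the history of the culture cannot be told apart. The p-values measure the spread between replicate extractions of a line, which may be technical, not between independent lines. The transgene is not a cardoon gene, and its level is not analysed here.

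MYB4 proteins are R2R3-type MYB repressors that bind promoters of phenylpropanoid genes. The phenylpropanoid pathway turns phenylalanine into cinnamic and coumaric acids and from there into lignin monomers, flavonoids and, in cardoon, caffeoylquinic acids. Callus is a dividing, largely undifferentiated tissue whose walls are remodelled by pectin- and xyloglucan-modifying enzymes, and its growth is set by the balance of auxin and cytokinin.

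Between 12736208 and 19509803 reads fell on genes in the L1 replicates and between 14903994 and 16543902 in the L18 replicates. Levels are given as normalized counts, read counts scaled by edgeR's TMM method (factors 0.854 to 1.10 over the series) to a common library size. A difference is given as log2FC, the fitted log2 of L1 over L18, so that a positive value is higher in L1. A gene was called where the quasi-likelihood F test of edgeR gave an adjusted p of 0.05 or less, adjusted by Benjamini-Hochberg across all 20024 genes. Where every replicate of a line had at most 3 counts, the line is described as at the detection floor and the fold is a lower bound against 3 counts in the shallowest replicate of that line. These floors cover counting error only. In bulk RNA, fewer cells of a type and less RNA per cell cannot be told apart.

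The 2 overexpressing lines differed at 6608 genes, 33.0% of those tested. Of these, 3225 (16.1%) were higher in L1 and 3383 (16.9%) were higher in L18. The difference was more than 2-fold at 3540 of the called genes, 1859 higher in L1 and 1681 higher in L18, and 820 genes lay beyond a log2FC of 3 in either direction. The median absolute log2FC of the called genes was 1.07 and the median log2FC over all tested genes was 0. At 9555 genes (47.7%) the 3 replicates of L1 did not overlap those of L18. Measured over all tested genes as the Euclidean distance of log2(CPM + 1), replicates of the same line lay 59.1 apart and L1 and L18 samples 127 apart. This gap of 68.3 was the largest of the 10 possible divisions of the 6 samples, which gives the smallest p the design allows (exact permutation test, one-sided, p = 0.1). Replicates of L18 were spread more widely (mean distance 64.5) than those of L1 (53.8). The 2 cardoon genes used as qPCR references did not pass the test. Elongation factor gene *Ccrd_012208* had 88199.6, 81226 and 89681 normalized counts in L1 and 95633, 120154 and 91108 in L18, and actin gene *Ccrd_013113* had 49993, 48445 and 59996 in L1 and 64409.7, 70188 and 56464 in L18. Their log2FC were -0.24 (edgeR adjusted p = 0.393) and -0.27 (edgeR adjusted p = 0.34).

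**Figure D1:**
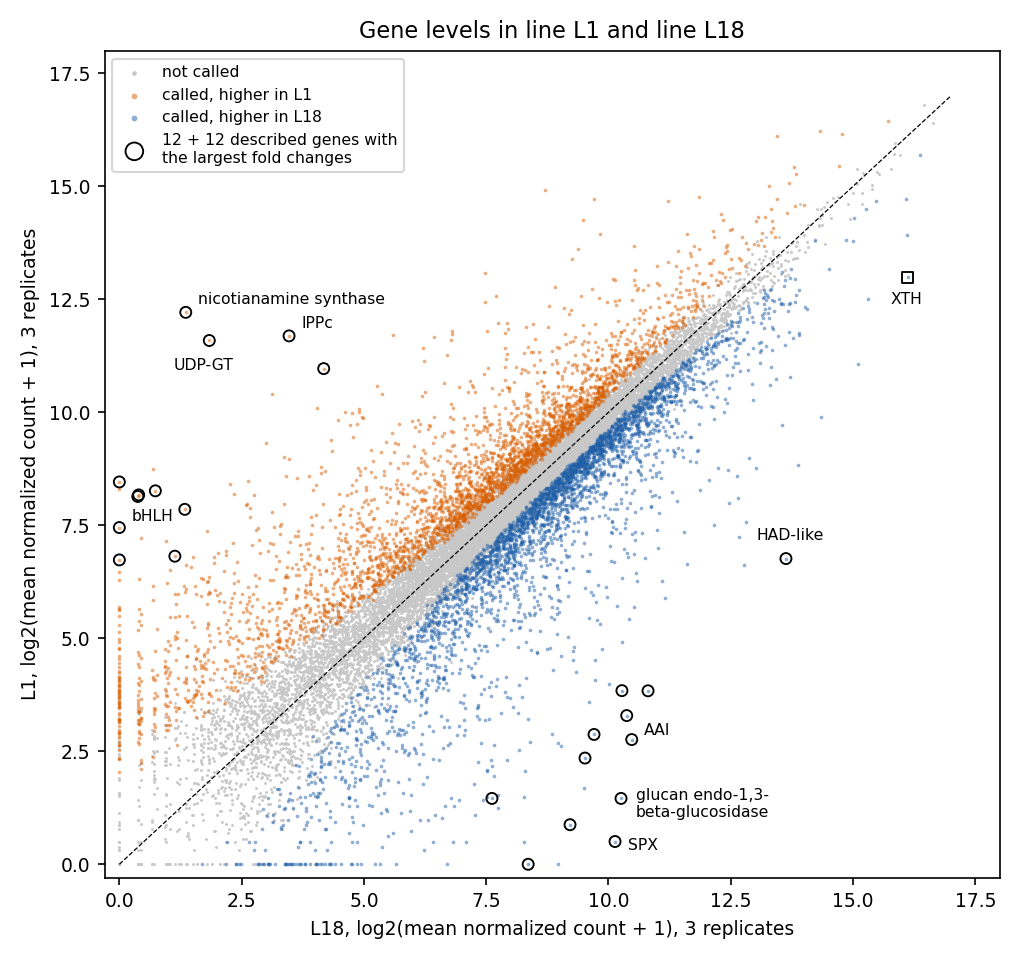
Each point is 1 of the 20024 tested genes, placed by log2(mean normalized count + 1) over the 3 L18 replicates (x axis) and over the 3 L1 replicates (y axis), with called genes in colour, the 24 described genes with the largest fold changes circled and the XTH gene *Ccrd_000418* in a square. The called genes lie on both sides of the diagonal in similar numbers, 3225 higher in L1 and 3383 higher in L18, and the circled genes of either side are far lower in the other line.

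Among described genes with at least 100 normalized counts on average in the higher line, the largest differences in favour of L1 were in a set of genes with hardly a read in L18. Nicotianamine synthase, which makes the metal chelator nicotianamine, stood out by level. The gene, *Ccrd_024179* on scaffold 11837 from 519 to 1508, had 4240.1, 3370.0 and 6616 normalized counts in the L1 replicates against 2.69, 1.05 and 0.946 in L18, 984, 845 and 614 in WT and 267, 298 and 389.8 in L24. L18 alone lacked this transcript, and L1 lay above all other samples. The fold between the lines was at least 1503.

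A second set was absent from L18 and from WT as well. A BAHD-type acyltransferase gene, *Ccrd_013923* on scaffold 131 from 413254 to 446220, had 335, 119 and 599 normalized counts in L1, 0 in every L18 and WT replicate and 2.03, 4.43 and 1.06 in L24, at least 111-fold more in L1 than L18. The bHLH transcription factor gene *Ccrd_004322*, on scaffold 1141 from 135362 to 136926, had 173, 181 and 168 in L1, 0 in all L18 and WT replicates and 27.5, 26.6 and 58.3 in L24, at least 55.1-fold more in L1 than L18. BAHD enzymes move acyl groups from CoA esters to alcohols and amines, and bHLH factors often act in complexes with MYB proteins. The dioxygenase gene *Ccrd_014557* had 149, 555 and 159 in L1 against 0, 0 and 0.946 in L18, and 3-ketoacyl-CoA synthase gene *Ccrd_022173*, of the elongase that extends fatty acids to very long chains, 237, 181 and 425 against 0.897, 0 and 0. In WT the first was at 0 in every replicate and the other had 0, 0 and 2.14. The CASP-like gene *Ccrd_004299* had 54.5, 33.9 and 228 in L1 and 0 in the 9 other samples. The bounds of these 3 genes were at least 91.1-, 89- and 33.4-fold, and the call of *Ccrd_004299* was lost with DESeq2.

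Further genes were at high levels in L1 and low or at the floor in L18. The UDP-glycosyltransferase gene *Ccrd_000776* on scaffold 1724 from 15961 to 24517 had 2374, 5089 and 1777 normalized counts in L1 and 0.897, 2.1 and 4.73 in L18, with 4.91, 0 and 3.21 in WT and 7.12, 50.95 and 38.1 in L24 (log2FC 10.16, standard error 0.72, edgeR adjusted p = 5.84e-07). Enzymes of this family attach sugars to small molecules, phenolics and hormones among them. The IPPc-domain gene *Ccrd_000409*, of a family of inositol polyphosphate phosphatases, had 3246, 3392 and 3279.8 in L1 and 16.2, 8.41 and 5.68 in L18, and was at 0 in WT (log2FC 8.32, standard error 0.48, edgeR adjusted p = 4.20e-07). The DETOXIFICATION transporter gene *Ccrd_021059* had 1538, 1471 and 2992 in L1 against 28.7, 8.41 and 14.2 (log2FC 6.83, standard error 0.56, edgeR adjusted p = 1.62e-06). For these 3 genes every L1 replicate was above every other sample of the series. The ADP-glucose pyrophosphorylase gene *Ccrd_020183*, of starch synthesis, had 356, 282 and 281 in L1 and 0, 1.05 and 0.946 in L18, at least 97-fold more in L1, and metallopeptidase gene *Ccrd_018947* had 203, 185 and 303 in L1 and 2.69, 0 and 1.89 in L18, at least 73-fold more. PLAT-domain gene *Ccrd_007151* had 77.2, 215 and 42.6 in L1 against 3.59, 0 and 0 in L18, a call that was lost with DESeq2. L1 replicate 2 was the highest of the line for *Ccrd_000776*, *Ccrd_014557* and *Ccrd_007151*, and L1 replicate 3 for *Ccrd_024179* and *Ccrd_021059*.

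In favour of L18, the set included a pair of SPX-domain genes and defence- and wall-related genes. SPX proteins bind inositol pyrophosphates and take part in phosphate sensing. The first, *Ccrd_006772* on scaffold 253 from 245075 to 247064, had 2260.1, 499 and 609 normalized counts in L18 and 0, 0 and 1.25 in L1, at least 299-fold more in L18, with 12.3, 47.3 and 59.9 in WT and 4.07, 1.11 and 1.06 in L24. The second, *Ccrd_020420* on scaffold 132 from 464317 to 467328, had 3028, 1213 and 1137 in L18, 9.09, 5.78 and 25 in L1, 38, 151 and 166 in WT and 29.5, 14.4 and 8.47 in L24 (log2FC -7.20, standard error 0.67, edgeR adjusted p = 3.73e-06). For both genes L18 was above all other samples, and L18 replicate 1 was the highest. The HAD-like gene *Ccrd_015757*, from a superfamily that holds many phosphatases, had 23237, 9309 and 5453 in L18, 97.2, 59.2 and 167 in L1 and 417, 1549 and 1345 in WT (log2FC -6.91, standard error 0.67, edgeR adjusted p = 5.04e-06). An MFS transporter gene, *Ccrd_009203*, had 1098, 373 and 308 in L18 against 0, 0 and 2.5 in L1, at least 158-fold more, and an amino acid transporter-type gene, *Ccrd_017603*, 406, 368 and 208 against 0 in every L1 replicate, at least 87.1-fold more.

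Other genes high in L18 were also high in WT, and hardly detected in L1. Glucan endo-1,3-beta-glucosidase gene *Ccrd_016505*, of a family that hydrolyses callose and fungal wall glucans, had 1401, 1592 and 676 in L18, 1634, 1319.6 and 1119 in WT, 1.82, 2.17 and 1.25 in L1 and 1.02, 2.22 and 0 in L24, at least 326-fold more in L18 than L1. The AAI-domain gene *Ccrd_017236*, of the family of lipid transfer proteins and amylase inhibitors, had 1518, 1851 and 901 in L18 and 4495, 1579 and 3616 in WT against 3.63, 8.67 and 5.01 in L1 and 0, 0 and 1.06 in L24. The barwin-like endoglucanase gene *Ccrd_017125* had 753, 2556 and 668 in L18, 3396, 3324 and 2579 in WT and 6.36, 13.7 and 6.26 in L1. In these 3 genes the L1 replicates lay below every L18 and WT replicate. Of the rest, an expansin gene, *Ccrd_011779*, loosening cell walls, had 608, 1120.2 and 471 in L18 against 4.54, 6.5 and 1.25, a cytochrome P450 gene, *Ccrd_015261*, 1353, 596 and 552 against 8.18, 5.78 and 5.01, and a GDSL lipase gene, *Ccrd_022620*, 2207, 815 and 693 against 7.27, 20.22 and 12.5. TCP transcription factor gene *Ccrd_001770* had 127, 358 and 101.3 in L18 and 1.82, 2.17 and 1.25 in L1, where it was at the floor. For genes at the floor the fitted log2FC depends on the prior count of the fit and is not given.

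Counted over all genes, 18 were at the detection floor in 1 of the lines and had at least 100 normalized counts in every replicate of the other, 8 at the floor in L1 and 10 in L18. Of the 8 missing from L1, none was at the floor in WT and 4 were at the floor in L24. Of the 10 missing from L18, 6 were at the floor in WT and 1 in L24. Genes of this kind with no description included *Ccrd_018497*, with 928, 231 and 339 normalized counts in L18 and 0 in each L1 replicate, *Ccrd_007253*, with 325, 305 and 659 in L1 and 0.897, 0 and 0.946 in L18, and *Ccrd_010291*, with 363, 303 and 284 in L1 and 0 in each L18 replicate.

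Apart from the genes and lists that the study itself names, members of families, those of PAL, 4CL and CCoAOMT included, were found by descriptions that exist for 2632 tested genes, each of which had been called by the study between L1 and WT. Members without a description were not examined. Such lists were chosen on the L1 samples and are no independent evidence of a direction for L1. Of the described genes 65.5% were called here (34.9% higher in L1, 30.7% higher in L18, median log2FC 0.13), against 26.0% of the 16395 tested genes outside that annotation, and the counts of a family are to be read against these shares. Tested genes whose entry in that annotation was blank are in neither share. The shares do not correct for families mostly on 1 side of WT in L1, whose lean may come in part from the choice on L1 samples. Over all described genes, L1 was above WT by mean at 1415 and below at 1217. Members of a family can be near-identical copies that share reads, and their separate values are then uncertain.

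The 2 described genes for the entry enzyme of the phenylpropanoid pathway were lower in L1 than in L18, and their levels in both lines lay below WT, while the later steps differed from gene to gene. Phenylalanine ammonia-lyase (PAL) deaminates phenylalanine to cinnamic acid. PAL gene *Ccrd_014855*, on scaffold 5442 from 7052 to 11961, had 19.99, 9.39 and 28.8 normalized counts in L1 and 148, 190.4 and 94.6 in L18, against 1626, 1232 and 1385 in WT (log2FC -2.97, standard error 0.36, edgeR adjusted p = 3.30e-05). PAL gene *Ccrd_007512*, on scaffold 24 from 300741 to 315153, had 4811, 3257 and 6526 in L1 and 11483, 12405 and 8271 in L18, against 21575, 21529 and 19918 in WT (log2FC -1.14, standard error 0.23, edgeR adjusted p = 0.00163). In both genes the 3 L1 replicates lay below the 3 L18 replicates and these below WT. For the next enzyme, cinnamate 4-hydroxylase (C4H), the 1 gene that the study names did not pass the test. This gene, *Ccrd_010165*, had 3660.4, 3111 and 4932 in L1 and 5623, 6089 and 4717 in L18, with 1 L1 replicate above 1 L18 replicate (log2FC -0.49, standard error 0.18, edgeR adjusted p = 0.0561). The paper counts 2 lowered genes for this step, and the other was not identified here.

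4-Coumarate-CoA ligase (4CL) activates coumaric acid and its relatives to CoA esters, and the 12 tested genes with this description split between the lines, with 5 called higher in L1 and 5 higher in L18. The 4CL gene that the study names for its qPCR check, *Ccrd_015556*, had 955, 693 and 1122 in L1 and 681, 756 and 535 in L18, and its lines overlapped (log2FC 0.49, standard error 0.18, edgeR adjusted p = 0.0474). This call was lost in 12 of 24 alternatives. The largest differences were in *Ccrd_012931*, with 1737, 1430.0 and 2547 in L1, 464, 326 and 432 in L18 and 719.9, 540.5 and 469 in WT (log2FC 2.22, standard error 0.23, edgeR adjusted p = 7.19e-06), and in the opposite direction in *Ccrd_004369*, with 209.9, 246 and 170.3 in L1, 1005, 739 and 939.7 in L18 and 683, 754 and 779 in WT (log2FC -2.09, standard error 0.17, edgeR adjusted p = 1.25e-06). In *Ccrd_004369* the L18 replicates lay in and above the WT range, and the L1 replicates lay below it. In *Ccrd_018719* both lines were far below WT (5991, 7616 and 8831), with 298, 366 and 190.3 in L1 and 870.3, 759 and 709.7 in L18 (log2FC -1.44, standard error 0.23, edgeR adjusted p = 2.52e-04).

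HCT couples coumaroyl-CoA to shikimate or quinate, and CCoAOMT methylates caffeoyl-CoA on the way to lignin monomers. HCT gene *Ccrd_015561* had 105, 67.9 and 182 in L1, 205, 268 and 177 in L18 and 3387, 3062 and 3485 in WT (log2FC -0.90, standard error 0.27, edgeR adjusted p = 0.0205). An L1 replicate exceeded the lowest L18 replicate, and the call was lost without L1 replicate 1, L1 replicate 2 or L18 replicate 2 and with only these 2 lines in the fit. Of 4 tested CCoAOMT genes, 2 were higher in L18 and 1 in L1. Gene *Ccrd_019031* had 3142, 2495 and 3693 in L1 and 6108, 8900.2 and 5795 in L18 against 37534, 33841 and 35225 in WT (log2FC -1.16, standard error 0.19, edgeR adjusted p = 4.44e-04), *Ccrd_012618* had 155, 117 and 301 in L1 and 58.3, 44.2 and 28.4 in L18 (log2FC 2.11, standard error 0.38, edgeR adjusted p = 7.16e-04), and *Ccrd_004659* had 14.5, 0 and 6.26 in L1 and 23.3, 24.2 and 18.9 in L18, a call that was lost in 6 of 24 alternatives. The lists of the study for phenylpropanoid metabolism (8 genes) and lignin biosynthesis (5 genes) were chosen on these samples for a change from WT in all lines and are no independent evidence of direction. In the first, 6 genes were higher in L18 and 1 in L1 (median log2FC -1.41), and in the second 2 were higher in L18 and none in L1 (median -0.19). In the lignin list 1 gene was called with DESeq2 and without L1 replicate 2, L1 replicate 3, L18 replicate 1 or L18 replicate 2.

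**Figure D2:**
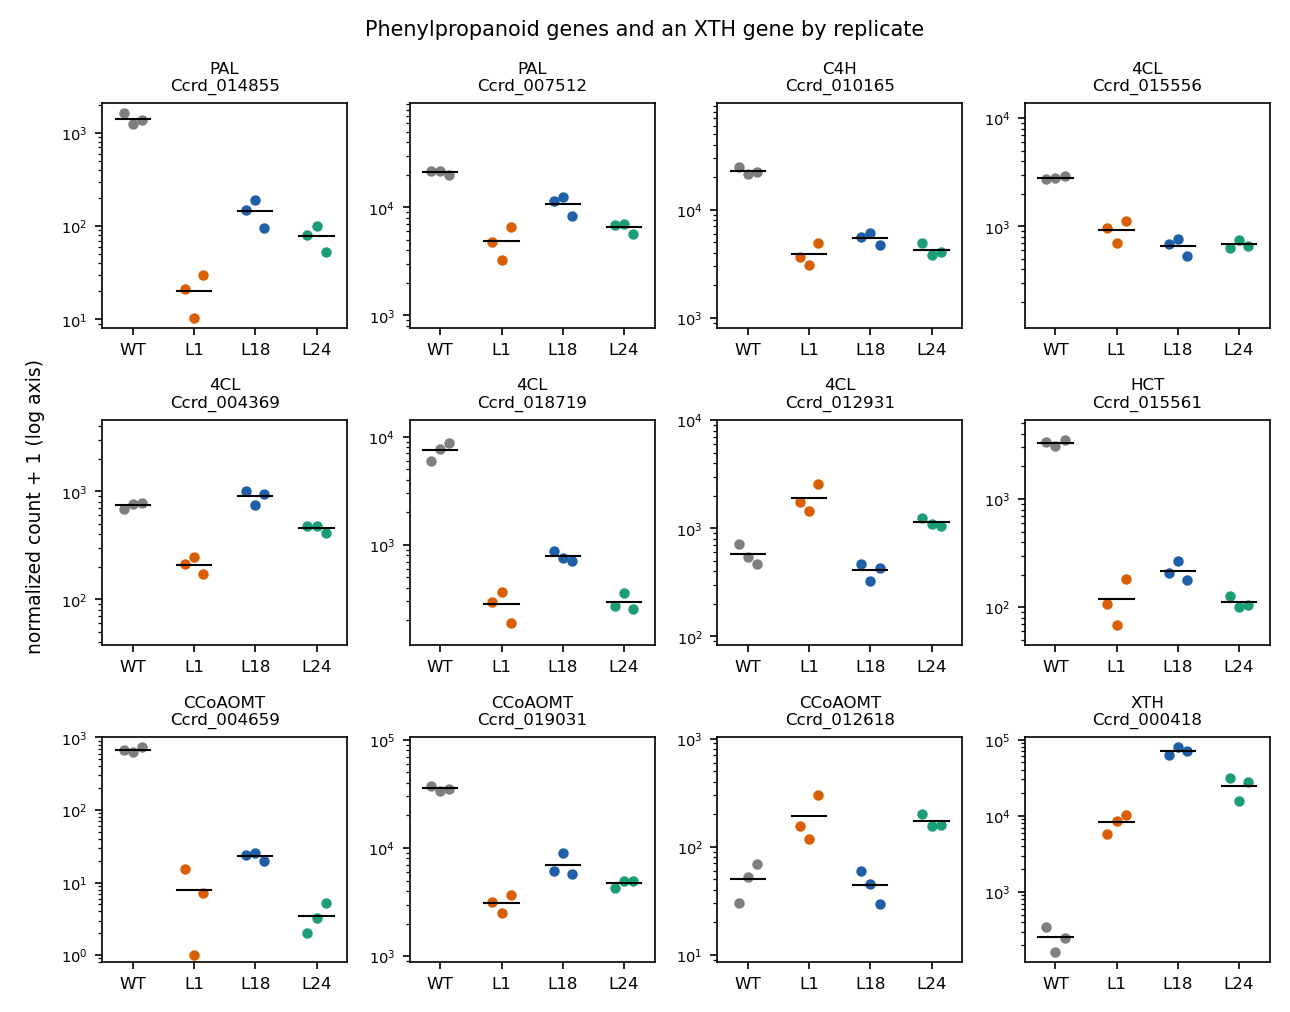
Normalized count + 1 on a log axis for 11 phenylpropanoid genes and 1 xyloglucan endotransglucosylase/hydrolase (XTH) gene in the 3 replicates of WT, L1, L18 and L24, with the mean of the 3 as a bar. In both PAL genes the L1 points lie below the L18 points, while for 4CL and CCoAOMT the order of L1 and L18 differs from gene to gene.

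Enzymes that act late, on phenolic radicals in the wall, differed by family. Genes described as peroxidases, a family that oxidizes monolignols and other wall phenolics, were mostly higher in L1, 25 of 34 against 5 higher in L18 (median log2FC 1.85). By mean, L1 was above WT for 29 of the 34, a direction on which the list was in part chosen, and L18 for 22. Peroxidase gene *Ccrd_008380* had 312, 233 and 528 normalized counts in L1 and 7.18, 7.36 and 0.946 in L18, with 44.1, 63.1 and 58.8 in WT and 4.07, 0 and 10.59 in L24 (log2FC 6.08, standard error 0.57, edgeR adjusted p = 4.04e-06). Genes *Ccrd_002344* and *Ccrd_020667* were at the floor in L18 and had 14.5, 7.94 and 27.6 (the former) and 12.7, 16.6 and 8.77 (the latter) in L1, at least 5.29- and 4.02-fold more. In *Ccrd_005616* the L1 values, 90.87, 8.67 and 3.76, came mostly from replicate 1, and its call was lost with DESeq2. The 5 peroxidases higher in L18 included *Ccrd_007497*, named after its values were seen, with 1235, 957 and 1544 in L18, 42.7, 22.4 and 22.5 in L1, 89.5, 140.0 and 131 in WT and 10.17, 2.22 and 5.3 in L24 (log2FC -5.40, edgeR adjusted p = 1.89e-07). Summed over the 34 genes, L1 replicates had 57671 to 76272 normalized counts, L18 replicates 48145 to 56759.7 and WT 13495 to 15132. Every L1 sum was above every L18 sum, and all of these were above WT.

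Dirigent proteins, which steer the coupling of phenoxy radicals into lignans, went the other way, with 4 of 5 higher in L18 and none in L1 (median -1.93). By mean, L1 was below WT for all 5, a direction on which the list was chosen. Gene *Ccrd_002570* had 259.9, 499 and 174 in L1, 4293, 2771 and 4191 in L18 and 6781, 7304 and 8761 in WT (log2FC -3.58, standard error 0.33, edgeR adjusted p = 3.30e-06), and *Ccrd_021500* had 3324, 3519 and 3617 in L1, 12505, 17011 and 10264 in L18 and 25369.7, 15936 and 13822 in WT. In the first, L18 lay between L1 and WT, and in the second L18 and WT overlapped. With only the 2 lines in the fit, or without L1 replicate 1, L1 replicate 2 or L18 replicate 1, 2 of the 5 were called. The 4 laccases, which oxidize monolignols with oxygen, were divided, with *Ccrd_011628* higher in L18 (494, 690.5 and 264 against 1884, 4326 and 3599.7; log2FC -2.75, standard error 0.45, edgeR adjusted p = 3.74e-04) and *Ccrd_003100* higher in L1 (4839, 3343 and 7207 against 1203, 2186 and 2137; log2FC 1.48, standard error 0.29, edgeR adjusted p = 0.00154). Among 18 BAHD acyltransferases 6 were higher in each line, among 59 cytochrome P450 genes 22 were higher in L1 and 23 in L18, and of 33 UDP-glycosyltransferases 12 were higher in L1 and 4 in L18. Of the 2 genes described as caffeate O-methyltransferases, 0 were called by edgeR, 0 by DESeq2, and 0 had an unadjusted p under 0.05.

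Pectin-degrading enzymes differed in opposite directions by family. Pectate lyases and polygalacturonases both cut homogalacturonan, the first by elimination and the second, which are family 28 glycoside hydrolases (GH28), by hydrolysis. All 9 pectate lyases were called, 7 higher in L18 and 2 in L1 (median log2FC -3.83). Gene *Ccrd_012421*, on scaffold 17 from 18041 to 19706, had 14727, 28824 and 18924 normalized counts in L18, 803, 995 and 1052 in L1, 13046, 10066 and 7838 in WT and 3134, 4852 and 2338 in L24 (log2FC -4.45, standard error 0.33, edgeR adjusted p = 7.50e-07). Gene *Ccrd_015998* had 1432, 1659.7 and 1539 in L18 and 91.8, 78.7 and 56.4 in L1 (log2FC -4.34, standard error 0.33, edgeR adjusted p = 1.04e-06), and *Ccrd_016637* had 133, 324 and 88 in L18 and 6.36, 0.722 and 2.5 in L1 (log2FC -5.82, standard error 0.62, edgeR adjusted p = 1.10e-05). Every L1 replicate was below every WT and L18 replicate in these 3 genes.

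Among 6 GH28 genes, 4 were higher in L1 and 1 in L18 (median 3.96). Gene *Ccrd_008943*, on scaffold 108 from 305818 to 310132, had 4496, 4962 and 16419 in L1, 277, 149 and 102 in L18, 75.3, 54.3 and 126 in L24 and 17.2, 8.88 and 10.70 in WT (log2FC 5.61, standard error 0.55, edgeR adjusted p = 5.53e-06). Gene *Ccrd_008017* had 5639.6, 6273 and 20403 in L1, 1073, 471 and 293 in L18 and 2.45, 22.7 and 9.63 in WT (log2FC 4.13, standard error 0.57, edgeR adjusted p = 9.33e-05), and *Ccrd_022005* and *Ccrd_016016* followed the same order, L1 above L18 above WT, with log2FC of 4.05 and 3.87. L1 replicate 3 was the highest sample in all 4 genes, and without it the other L1 replicates still lay above every L18 replicate.

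Other wall enzymes were mixed. Pectinesterases and their inhibitors, which set the methylation of pectin, had 15 of 25 members higher in L1 and 9 in L18 (median 1.21). Inhibitor gene *Ccrd_017163* had 31.8, 64.3 and 168 in L1 and 0 in all other samples, at least 27.9-fold more in L1 than L18, a call that was lost with DESeq2. Inhibitor-domain gene *Ccrd_014444* had 0.909, 4.33 and 0 in L1 against 109, 128 and 89 in L18 (log2FC -5.62, standard error 0.46, edgeR adjusted p = 1.42e-06). Of 7 expansins 4 were higher in L18 and 1 in L1, with *Ccrd_009630* at 3403, 9275 and 8319.8 in L18 against 102, 116 and 76.4 in L1 (log2FC -6.14, standard error 0.75, edgeR adjusted p = 3.42e-05). XTH enzymes cut and rejoin xyloglucan chains, and 4 of 7 were higher in L18 and 2 in L1. The XTH gene named by the study, *Ccrd_000418* on scaffold 20 from 472082 to 475245, had 5699, 8637 and 10124 in L1 and 62120.0, 79530.0 and 71327 in L18, with 348, 162 and 249 in WT and 31487, 15630.2 and 27435 in L24 (log2FC -3.12, standard error 0.32, edgeR adjusted p = 8.45e-06). Both lines were far above WT, and L18 far above L1. Endoglucanases had 5 of 9 members higher in L18 and 3 in L1.

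CASP-like proteins are relatives of the membrane proteins that organize the Casparian strip of the endodermis, and 11 of 18 were higher in L1 and 1 in L18 (median 1.97, or 2.34 with bounds). Gene *Ccrd_026415* had 775, 552 and 962 in L1, 41.3, 68.4 and 95.6 in L18, 3.68, 7.89 and 6.42 in WT and 574, 672 and 505 in L24 (log2FC 3.48, standard error 0.29, edgeR adjusted p = 1.61e-06). Gene *Ccrd_015518* had 35.4, 58.5 and 155 in L1 and 5.38, 6.31 and 5.68 in L18 (log2FC 3.80, standard error 0.62, edgeR adjusted p = 3.59e-04), and *Ccrd_026593* 274, 222 and 373 in L1 and 35.9, 6.31 and 22.7 in L18 (log2FC 3.70, standard error 0.49, edgeR adjusted p = 6.41e-05). Summed over the list, L1 replicates had 8399.7 to 13599 normalized counts, L18 2548 to 2609, WT 2548 to 3143 and L24 4327 to 5125, so that L1 was above every other sample.

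**Figure D3:**
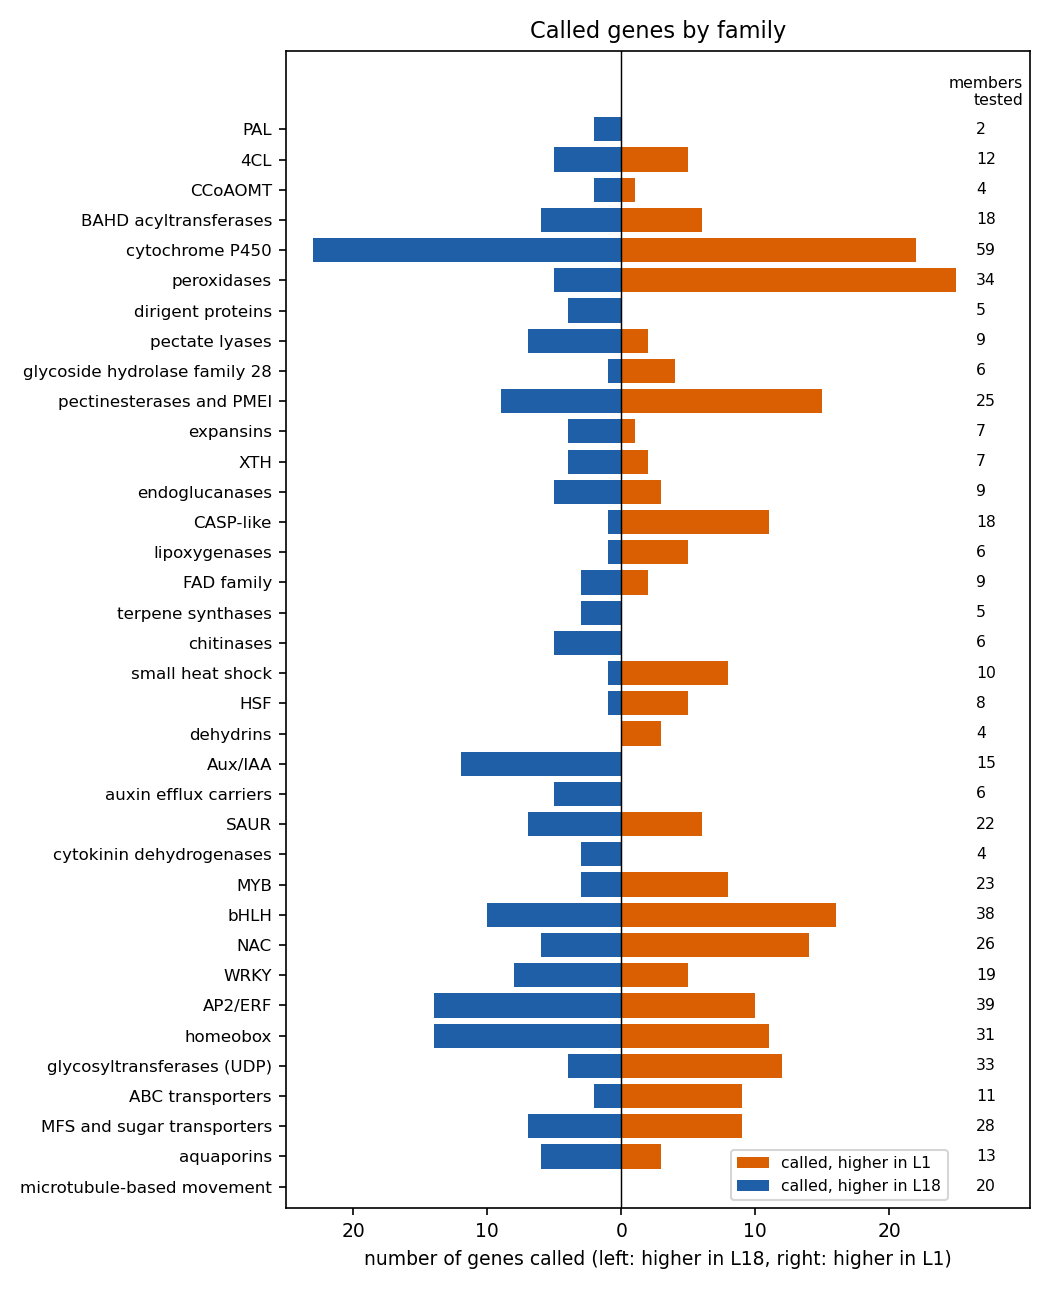
Number of genes called higher in L1 (right, orange) and higher in L18 (left, blue) in each of 36 gene lists, with the number of members tested at the right edge. Aux/IAA proteins, chitinases and dirigent proteins have bars to the left only (12, 5 and 4 genes), while peroxidases, CASP-like proteins and small heat shock proteins extend mostly to the right (25, 11 and 8 genes).

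The Aux/IAA and auxin efflux genes that passed the test were all higher in L18. Aux/IAA proteins are repressors of auxin response whose own genes are induced by auxin, and 12 of 15 were higher in L18 and none in L1 (median log2FC -2.51, or -2.34 with bounds). Gene *Ccrd_010004* had 6.36, 7.94 and 1.25 normalized counts in L1, 120.2, 109 and 82.3 in L18, 272, 333 and 356 in WT and 20.34, 16.6 and 24.4 in L24 (log2FC -4.17, standard error 0.35, edgeR adjusted p = 1.71e-06). Gene *Ccrd_023775* had 34.5, 41.9 and 23.8 in L1, 607, 317 and 562 in L18 and 345, 379.7 and 409 in WT (log2FC -3.86, standard error 0.44, edgeR adjusted p = 1.85e-05), and *Ccrd_020405* had 11.8, 2.17 and 6.26 in L1, 123, 76.8 and 51.1 in L18 and 34.3, 46.4 and 50.28 in WT (log2FC -3.65, standard error 0.52, edgeR adjusted p = 1.14e-04). Aux/IAA gene *Ccrd_008080* was near the floor in both lines (3.59, 4.21 and 2.84 in L18 and 0 in L1), and its call was lost in 5 of the 23 alternatives in which it was tested. In the mean, L18 was above WT for 10 of the 15 genes and L1 for 4 of 15, the latter a direction on which the list was in part chosen.

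Auxin efflux carriers had 5 of 6 members higher in L18 and none in L1 (median -1.40). Gene *Ccrd_013799* had 13.6, 15.9 and 26.3 in L1, 371, 899 and 134 in L18, 633, 406 and 657 in WT and 72.2, 31 and 32.8 in L24 (log2FC -4.69, standard error 0.62, edgeR adjusted p = 6.61e-05), and *Ccrd_018269* had 40.89, 28.9 and 40.07 in L1 and 207, 257 and 92.7 in L18 (log2FC -2.35, standard error 0.32, edgeR adjusted p = 8.23e-05). Without L1 replicate 1, L18 replicate 1 or L18 replicate 2, 3 of the 6 were called. SAUR genes, small auxin-induced genes, were divided, with 6 of 22 higher in L1 and 7 in L18. Cytokinin dehydrogenases degrade cytokinins, and 3 of 4 were higher in L18 (median -2.44). Gene *Ccrd_020551* had 4.54, 1.44 and 1.25 in L1, 177, 183 and 95.6 in L18, 302, 461 and 868 in WT and 15.3, 16.6 and 15.9 in L24 (log2FC -5.89, standard error 0.55, edgeR adjusted p = 3.95e-06), *Ccrd_018217* 3.63, 6.5 and 3.76 in L1 and 52.9, 71.5 and 41.6 in L18 (log2FC -3.50, standard error 0.49, edgeR adjusted p = 1.00e-04), and *Ccrd_020235* 23.6, 46.9 and 32.6 in L1 and 106, 116 and 53 in L18 (log2FC -1.39, standard error 0.31, edgeR adjusted p = 0.00355). For these enzymes the L1 replicates lay below all WT and L18 replicates. Of 3 response regulators of the two-component type, *Ccrd_021008* was called, higher in L18 (log2FC -1.86).

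Heat-shock genes were mostly higher in L1. Small heat shock proteins are chaperones that hold unfolded proteins, and 8 of 10 were higher in L1 and 1 in L18 (median 2.86). By mean, L1 was above WT for 8 of the 10, a direction on which the list was in part chosen, and L18 for 2. Gene *Ccrd_018599* had 599, 489.7 and 1138 normalized counts in L1, 47.6, 41 and 52 in L18, 49.1, 71 and 84.5 in WT and 146, 186 and 143 in L24 (log2FC 3.98, standard error 0.32, edgeR adjusted p = 1.25e-06). Gene *Ccrd_020229* had 2140.1, 1836 and 4317 in L1 and 247, 232 and 222 in L18 (log2FC 3.56, standard error 0.27, edgeR adjusted p = 9.38e-07), and *Ccrd_012021* 2241, 2178 and 3995 in L1 and 351, 333 and 293 in L18 (log2FC 3.10, standard error 0.26, edgeR adjusted p = 1.75e-06). Replicate 3 was the highest of L1 in these genes, and without it 10 of the 10 genes were called. Heat shock transcription factors had 5 of 8 members higher in L1 and 1 in L18 (median 1.56), *Ccrd_024478* among them with 146, 168 and 274 in L1 and 19.7, 13.7 and 22.7 in L18 (log2FC 3.37, standard error 0.30, edgeR adjusted p = 2.70e-06). Summed over the 8 factors, however, the lines overlapped, with 4287 to 5541 in L1 and 3652 to 6018 in L18, both below WT (11477.5 to 12668). Dehydrins, which protect cells against water loss, had 3 of 4 members higher in L1, such as *Ccrd_004741* with 479, 597 and 617 in L1, 121, 96.8 and 106 in L18 and 3.68, 1.97 and 0 in WT (log2FC 2.38, standard error 0.24, edgeR adjusted p = 7.24e-06). The sum over the 4 dehydrins overlapped between the lines (1515 to 2274 in L1, 1036 to 1942 in L18) and was below WT (3705 to 6410).

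Chitin-binding proteins and chitinases, with roles in defence, were higher in L18, 5 of 6 against none in L1 (median -4.32, or -3.74 with bounds). By mean, L1 was below WT for all 6, a direction on which the list was chosen, and L18 was above WT for 1. Gene *Ccrd_006708* had 3.63, 7.94 and 7.51 in L1, 453, 550.1 and 380.4 in L18, 648, 501 and 558 in WT and 13.2, 21 and 6.36 in L24 (log2FC -6.15, standard error 0.34, edgeR adjusted p = 1.06e-07). Gene *Ccrd_026859* had 3.63, 18.1 and 11.3 in L1 and 901, 865 and 566 in L18 (log2FC -6.08, standard error 0.42, edgeR adjusted p = 5.12e-07), *Ccrd_005812* 0.909, 1.44 and 1.25 in L1 and 34.1, 25.2 and 59.6 in L18, and *Ccrd_013526* 377, 348 and 533 in L1 and 4474, 7849.5 and 4483 in L18 (log2FC -3.74, standard error 0.30, edgeR adjusted p = 1.32e-06). The L1 replicates were the lower in every case, and in *Ccrd_006708* and *Ccrd_026859* the L24 replicates were near the level of L1. Pathogenesis-related Bet v 1 proteins had 6 of 12 members higher in L1 and 3 in L18, led by *Ccrd_016237* with 3011, 3461 and 3302 in L1, 122, 62.1 and 71 in L18 and 6670.2, 9979.9 and 8591 in WT (log2FC 5.25, standard error 0.45, edgeR adjusted p = 2.11e-06). For WRKY factors, many of them defence regulators, the numbers were 5 and 8 of 19, for glutathione S-transferases 2 and 2 of 5, and for LEA proteins 4 and 4 of 11. The glutathione S-transferases still differed in sum, with 17561 to 18448 in L1, 6288 to 7742 in L18 and 7979 to 11013.5 in WT.

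**Figure D4:**
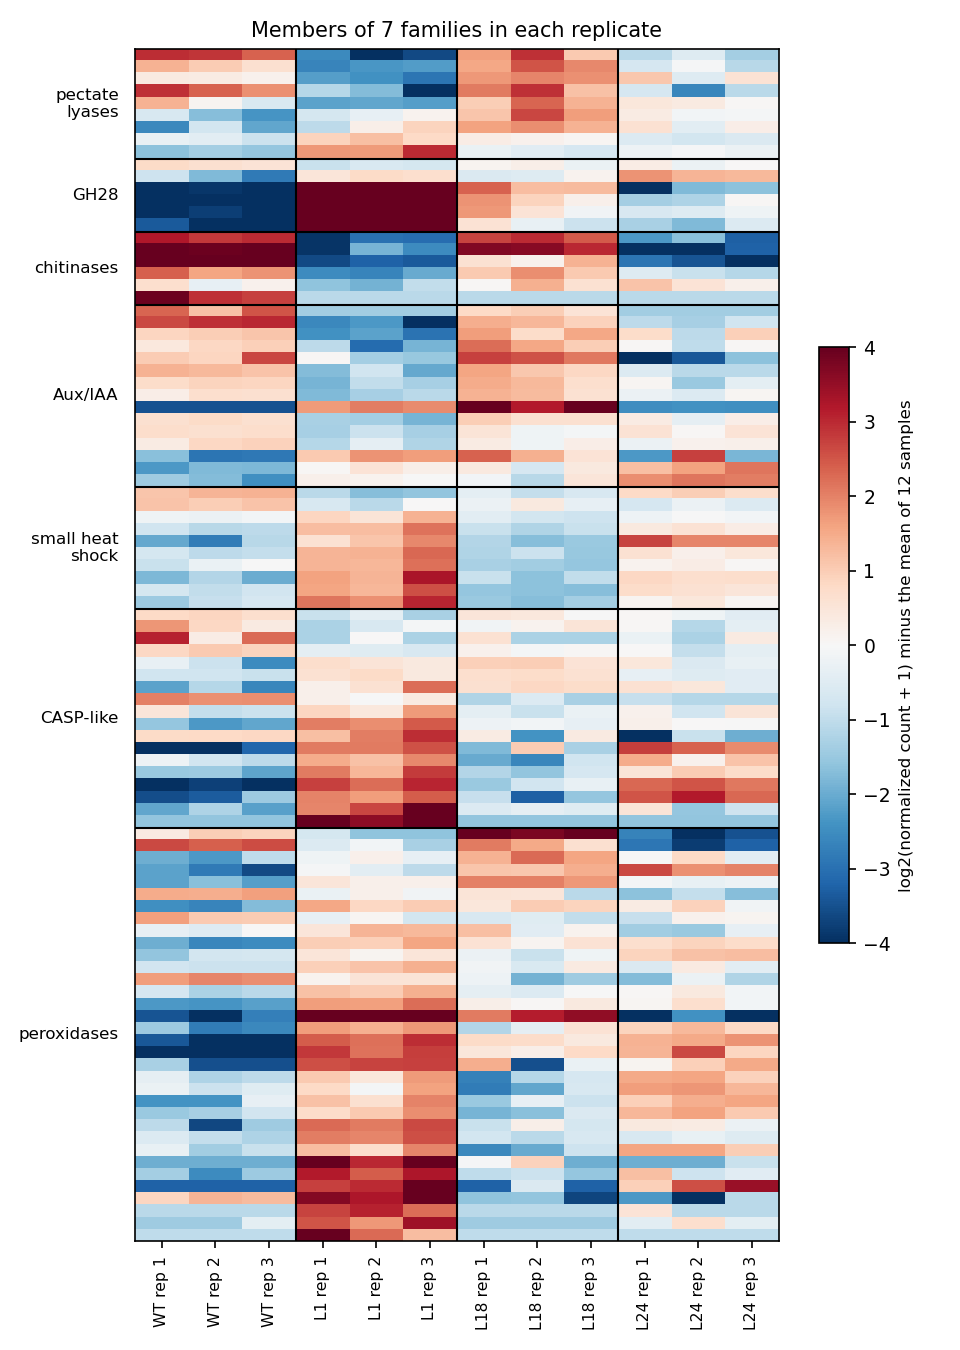
Each row is 1 gene of 7 families, ordered within its family by log2FC of L1 over L18, and each column 1 of the 12 samples. Colour gives log2(normalized count + 1) minus the mean of the 12 samples, limited to 4 in either direction. Most pectate lyases, chitinases and Aux/IAA genes are lower in the 3 L1 replicates than in L18, whereas most GH28, small heat shock, CASP-like and peroxidase genes are higher in L1 than in L18.

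Of the cardoon MYB genes named by the study, 3 of 11 passed the test between the lines. The MYB48-like gene *Ccrd_018110* had 32.7, 18.8 and 53.8 normalized counts in L1 and 0.897, 0 and 0 in L18, at least 11.1-fold more in L1, with 117, 104 and 149 in WT and 0 in every L24 replicate. The MYB107-like gene *Ccrd_013908* had 1.82, 2.89 and 5.01 in L1, 51.1, 34.7 and 25.5 in L18 and 90.75, 69 and 105 in WT (log2FC -3.54, standard error 0.44, edgeR adjusted p = 3.57e-05), and the MYB36-like gene *Ccrd_012299* 483, 330.1 and 348 in L1, 114, 130.4 and 149 in L18 and 28.2, 23.7 and 16 in WT (log2FC 1.56, standard error 0.35, edgeR adjusted p = 0.00383). In Arabidopsis MYB36 activates Casparian strip genes and MYB107 genes of suberin assembly. The other 8 did not pass, with edgeR adjusted p from 0.0967 to 0.828. In the whole MYB list 8 of 23 were higher in L1 and 3 in L18. Another MYB gene, *Ccrd_002641*, had 0, 3.61 and 5.01 in L1, 289, 222 and 96.5 in L18 and 9.81, 32.5 and 38.5 in WT (log2FC -6.14, standard error 0.70, edgeR adjusted p = 1.98e-05).

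NAC factors, regulators of wall formation and senescence, had 14 of 26 members higher in L1 and 6 in L18 (median 1.07). Gene *Ccrd_016142* had 3943, 3274 and 11123 in L1, 324, 91.5 and 203 in L18, 208, 256 and 259 in WT and 4932, 3885 and 3576 in L24 (log2FC 4.88, standard error 0.50, edgeR adjusted p = 7.84e-06). Genes *Ccrd_017825* and *Ccrd_012505* were at the floor in L18 and had 28.2, 28.2 and 91.4 (the former) and 10.90, 10.11 and 17.5 (the latter) in L1, at least 15.6- and 4.07-fold more. L18 lay in or near the WT range in all 3. Of bHLH factors 16 of 38 were higher in L1 and 10 in L18, of AP2/ERF factors 10 and 14 of 39, of homeobox factors 11 and 14 of 31, and of MADS factors 5 and 1 of 14. The MADS gene named by the study, *Ccrd_019107*, had 32.7, 39.7 and 3.76 in L1, 0, 1.05 and 0.946 in L18 and 151, 169 and 167 in WT, at least 8.05-fold more in L1 than L18. The 3 MADS-type genes *Ccrd_019107*, *Ccrd_015131* and *Ccrd_005335* had the order WT above L1 above L18, the last 2 with log2FC of 3.90 and 2.82. AP2 gene *Ccrd_016332* was not called (3333, 3075 and 4337 in L1, 3449.9, 3465 and 3039.5 in L18; edgeR adjusted p = 0.673). Homeobox gene *Ccrd_014972* had 33.6, 73.7 and 18.8 in L1, 1209, 2023 and 873 in L18, 954, 664 and 651 in WT and 72.2, 79.7 and 98.5 in L24 (log2FC -4.95, standard error 0.42, edgeR adjusted p = 1.71e-06).

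Lipid enzymes were split by type. Lipoxygenases oxidize polyunsaturated fatty acids toward jasmonates and related oxylipins, and 5 of 6 were higher in L1 and 1 in L18 (median 1.96). Gene *Ccrd_007150* had 1233, 2289.5 and 518 in L1, 35, 42.1 and 43.5 in L18, 50.28, 75 and 72.7 in WT and 155, 188 and 200.2 in L24 (log2FC 5.07, standard error 0.44, edgeR adjusted p = 2.36e-06), and *Ccrd_019992* had 1758, 1609 and 2299 and 332, 276 and 506 in the lines (log2FC 2.34, standard error 0.28, edgeR adjusted p = 2.92e-05). Membrane-bound fatty acid desaturases, which add double bonds to acyl chains, had 3 of 9 members higher in L18 and 2 in L1. Gene *Ccrd_018027* had 16.4, 15.9 and 15 in L1, 1196, 1034 and 323 in L18, 1409, 1984 and 1431 in WT and 253, 379.9 and 478 in L24 (log2FC -5.74, standard error 0.48, edgeR adjusted p = 1.71e-06), and *Ccrd_012184* 39.98, 64.3 and 36.3 in L1 and 929.5, 372 and 218 in L18 (log2FC -3.41, standard error 0.59, edgeR adjusted p = 5.35e-04). The 1 gene described as a soluble stearoyl-ACP desaturase, *Ccrd_010683*, was at the floor in L18, at 0 in every WT and L24 replicate and had 4.54, 20.95 and 33.8 in L1. It failed the low-count filter of edgeR's filterByExpr. Terpene synthases had 3 of 5 members higher in L18 and none in L1.

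Among transporters, all 11 ABC genes were called, 9 higher in L1 and 2 in L18 (median 1.30). Gene *Ccrd_004534* had 654, 746 and 1326 normalized counts in L1, 28.7, 26.3 and 8.52 in L18, 0 in each WT replicate and 10.17, 3.32 and 12.7 in L24 (log2FC 5.41, standard error 0.43, edgeR adjusted p = 3.19e-06). Gene *Ccrd_004541* had 48.2, 59.9 and 111 in L1 and 0.897, 1.05 and 0.946 in L18, at least 23.2-fold more in L1, and *Ccrd_017000* had a log2FC of 3.81. In the opposite direction, *Ccrd_016691* had 1.82, 0.722 and 1.25 in L1, 23.3, 133 and 25.5 in L18 and 648, 549 and 495 in WT, at least 16.1-fold more in L18. Aquaporins had 6 of 13 members higher in L18 and 3 in L1, MFS and sugar transporters 7 and 9 of 28, and oligopeptide transporters 6 and 2 of 9. The sugar transporter SWEET gene *Ccrd_015880* had 32.7, 16.6 and 80.15 in L1 and 0, 3.16 and 0 in L18, at least 13.7-fold more in L1, and ammonium transporter gene *Ccrd_018760* 48.2, 18.8 and 63.9 in L1 and 2.69, 0 and 0.946 in L18, at least 13.8-fold more in L1.

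Most genes of cell division did not pass the test. Of 11 kinesins 3 were higher in L1 and 1 in L18, and of 5 cyclins 1 was higher in each line. Of the 20 genes that the study lists under microtubule-based movement, all above WT in both lines by mean, 0 were called by edgeR with all samples, 1 had an unadjusted p under 0.05, 1 was called by DESeq2 and 2 by edgeR without L18 replicate 2 (median log2FC -0.24). For chromosome condensation (3 genes), cell division (2 genes) and mitotic cell cycle (2 genes), 0 were called by either tool and 0 had an unadjusted p under 0.05. These lists were chosen on the same samples for a change from WT in all lines. Aurora kinase gene *Ccrd_006023* had 172, 147 and 97.7 in L1 and 109, 157 and 146 in L18, DNA polymerase gene *Ccrd_013806* 272, 282 and 188 in L1 and 223, 214 and 255 in L18, and HUB1-like gene *Ccrd_000826* 1138, 1633 and 950.5 in L1 and 1083, 753 and 1442 in L18, with edgeR adjusted p of 0.949, 0.716 and 0.637. A p above the threshold does not show that their levels were equal. The cyclin-dependent kinase inhibitor gene *Ccrd_010818*, a KRP7-like brake on the cell cycle, was lower in L1, with 16.4, 20.95 and 16.3 against 50.25, 69.4 and 36.9 in L18 and 124, 107 and 148 in WT (log2FC -1.52, standard error 0.40, edgeR adjusted p = 0.01), and the call was lost with limma on log2(FPKM + 0.1). In the salinity-response list of the study (3 genes, chosen on these samples), 1 gene was higher in each line (median log2FC -0.20). Gene *Ccrd_025038*, higher in L1, had 681, 509 and 736 in L1 and 517, 414 and 455 in L18 (log2FC 0.47, standard error 0.16, edgeR adjusted p = 0.0373), and its call was lost in 9 of 24 alternatives. The HVA22-like gene *Ccrd_001771* had 116, 229.7 and 103 in L1, 7157, 8013 and 4370.0 in L18 and 14456, 15526 and 11559.5 in WT (log2FC -5.43, standard error 0.35, edgeR adjusted p = 3.20e-07). Of the 9 genes for aromatic amino acid synthesis, the supply of phenylalanine, 2 were higher in L18 and none in L1 (median -0.17), led by the DAHP synthase gene *Ccrd_022051* with 1902, 1517 and 1868 in L1 and 3885, 3591 and 2174 in L18 (log2FC -0.87, standard error 0.19, edgeR adjusted p = 0.00308). Of the 9, 1 was called with only the 2 lines in the fit, with the neighbours' median removed, and without L1 replicate 2, L18 replicate 1 or L18 replicate 2.

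Transcripts looked for as markers of differentiated cells were detected in both lines. The 17 described photosynthetic genes summed to 2574 to 3205 normalized counts in L1, 2587 to 3154 in L18, 1508 to 2120.4 in WT and 813 to 1142 in L24, and 3 were higher in L1 and 7 in L18. L1 and L18 overlapped in this sum. The 8 storage or embryo genes summed to 1388 to 1448 in L1, 2069 to 2883 in L18 and 4056 to 5711 in WT, with 1 higher in L1 and 4 in L18, and the lines did not overlap. Embryo gene *Ccrd_003555* was at 0 in every L18 and WT replicate and had 6.36, 18.1 and 7.51 in L1. Genes looked for as xylem markers differed by family. The 2 described cellulose synthases, which deposit wall cellulose, summed to 520.0 to 651 in L1 and 39.97 to 162 in L18, and 1 of them was called, higher in L1. Of the 4 laccases 1 was higher in each line, and of the 5 dirigent proteins 4 were higher in L18 and none in L1. The part of a shift in cell types in any of these results was not tested.

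Set beside the other groups, L18 was the line nearer to WT at the genes that differ. WT lay nearer to L18 at 4299 of the 6608 called genes (65.1%) and nearer to L1 at 2309, and L24 lay nearer to L1 at 4055 (61.4%). For the genes higher in L1, 2137 of 3225 had WT nearer to L18, and for the genes higher in L18, 2162 of 3383. WT lay between the lines at 3415 genes, above both at 1607 and below both at 1586. At 827 called genes the lines were on opposite sides of WT with no overlap between any of the 3 groups, 385 with L1 above WT above L18 and 442 with L18 above WT above L1. Each step was at least 2-fold at 180 of them, 86 and 94 in the 2 orders. No minimum level was set for these counts, so a step can rest on few reads.

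Runs of genes that follow each other in identifier order also separated the lines. Genes whose average log2 CPM reached 3 were taken in the order of their identifiers in 135 windows of 100 genes, 13582 genes in all, and each sample was described by the median over the window of log2(normalized count + 1) minus the mean of the 12 samples. In 13 windows the medians of L1 and L18 differed by at least 0.3 with no overlap of replicates, 6 higher in L1 and 7 higher in L18, and in 82 windows the replicates did not overlap. The largest difference, -0.57, was in the window from *Ccrd_010315* to *Ccrd_010557*, where the L1 medians were -0.32, -0.31 and -0.43 and the L18 medians 0.13, 0.31 and 0.22, with 0.20, 0.35 and 0.42 in WT and -0.17, -0.21 and -0.22 in L24. Its genes lay on 64 scaffolds, and the order of scaffolds along chromosomes is not shown by the files used here. Of its 100 genes 59 were called higher in L18 and 2 higher in L1. The windows that follow each other from *Ccrd_009655* to *Ccrd_010761* held genes of 19 to 64 scaffolds each and were all lower in L1, as was that from *Ccrd_009307* to *Ccrd_009469*. In the window from *Ccrd_013938* to *Ccrd_014100*, on 7 scaffolds, the L1 medians were 0.17, 0.17 and 0.23 and the L18 medians -0.17, -0.20 and -0.22, and in that from *Ccrd_007234* to *Ccrd_007456*, on 4 scaffolds, 0.28, 0.27 and 0.40 and -0.10, -0.04 and -0.05. Both were higher in L1, and in the first the L24 mean was also below 0. The 13 windows held 618 called genes of 1300. The smallest difference counted was 0.30 and the largest not counted 0.28. No copy number was measured, and the part of chromosome dosage was not tested. C4H gene *Ccrd_010165* lies in such a run, where the running median of its neighbours was -0.35 against its own log2FC of -0.49. When the median of the neighbours was subtracted from every gene, 6058 genes were called, 5458 of them among the 6608.

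**Figure D5:**
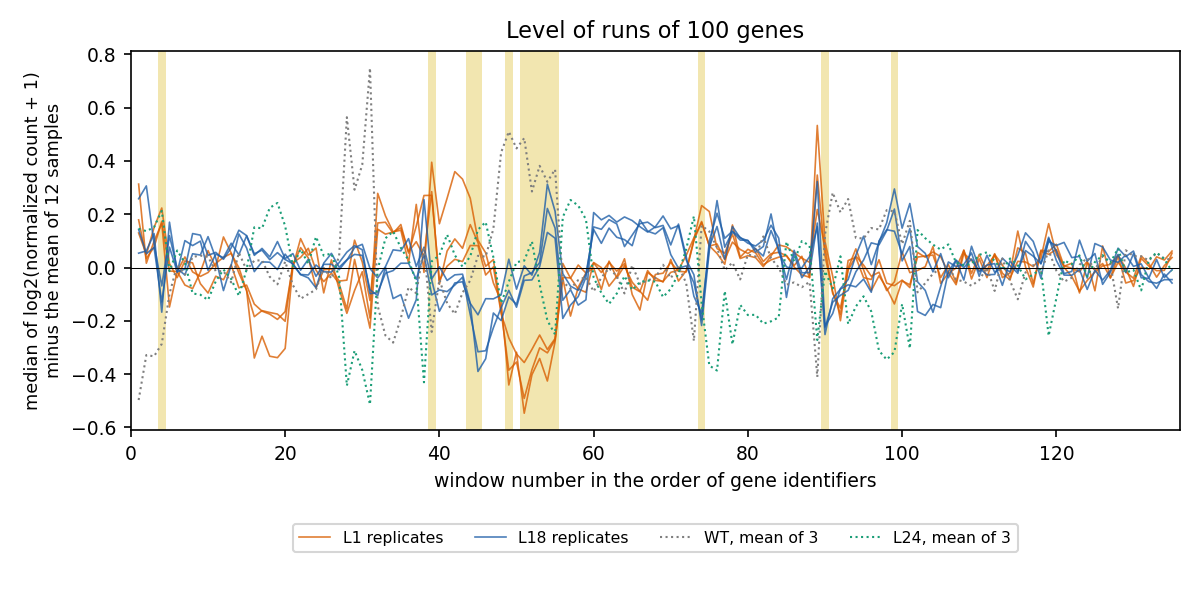
Median level of each run of 100 genes (log2(normalized count + 1) minus the mean of the 12 samples) along the order of gene identifiers, with 1 line for each L1 and L18 replicate and dotted lines for the means of WT and L24. Shaded windows are the 13 in which L1 and L18 differed by at least 0.3 without overlap, and the largest gap, 0.57, has the 3 L18 replicates above and the 3 L1 replicates below 0.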

How the data were processed

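Reads were cleaned by the authors in BBDuk, which kept a length of at least 35 and a quality of 35, and mapped with STAR to the genome of cardoon, and they deposited raw read counts per gene with gene coordinates on the CcrdV1 scaffolds. They also deposited FPKM values, counts divided by gene length and library total, which served here only for limma alternatives on log2(FPKM + pseudocount). The aligner's version, the strandedness of counting and the handling of reads shared by near-identical genes are not given in the sources used here.

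Counts were analysed in R 4.3.3 with edgeR 4.0.16 (TMM factors, quasi-likelihood F test, all 12 samples in 1 fit, contrast L1 minus L18, Benjamini-Hochberg adjustment). A gene was tested if a normalized count exceeded 10.5 in any sample, the threshold that maximized the Jaccard index between replicates (0.961), after the rule of HTSFilter. Standard errors are the absolute log2FC over the square root of F. Medians given "with bounds" use the floor for genes at the floor in 1 line and leave out genes at the floor in both. limma 3.58.1 and DESeq2 1.42.0 gave alternatives. The fit was tested on simulated data.

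Descriptions came from a shortened copy of the study's annotation of genes called between L1 and WT, with 3630 entries. Of these, 2632 were tested and had a description that was not blank. The fold changes and p-values of the copy were not used. No identifier matched the reference gene table, so no sequences are shown. Named genes were the 12 described genes with the largest absolute fitted log2FC on each side and at least 100 normalized counts on average in the higher line, the genes the study names, the 4 called members of each list with the largest absolute log2FC, and the undescribed genes at the floor. Members and lists were chosen with earlier results of these data known. Replicates differed beyond sampling noise (chi-square per gene 8.41 to 38.9), and all were kept.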

Additional observations from a re-analysis of the deposited data

Results flagged for a closer look

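Line L1 and line L18 lay on opposite sides of WT at 827 genes, with no overlap between any of the 3 groups. The genes were counted among the 6608 called between the lines, so that a difference between L1 and L18 was a condition of the count. Whether each line differed from WT was not tested here, and WT is shared by both steps. The count set no minimum level, so a step can rest on few reads. Of the genes with the largest fold changes, 13 belong to these.

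Higher in L1 and lower in L18 than in WT were nicotianamine synthase gene *Ccrd_024179* (mean 4742 ± 1680.2 normalized counts in L1, SD, n = 3, against 814 ± 187 in WT), ADP-glucose pyrophosphorylase gene *Ccrd_020183* (306 ± 43.4 against 124 ± 9.2), metallopeptidase gene *Ccrd_018947* (230.2 ± 63.7 against 8.1 ± 1.99) and DETOXIFICATION gene *Ccrd_021059* (2000.5 ± 859 against 86.4 ± 45.5).

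Higher in L18 and lower in L1 than in WT were the SPX genes *Ccrd_006772* (mean 1123 ± 987 in L18, SD, n = 3, against 39.8 ± 24.7 in WT) and *Ccrd_020420* (1793 ± 1071 against 118 ± 69.9), HAD-like gene *Ccrd_015757* (12666 ± 9355 against 1104 ± 603), expansin gene *Ccrd_011779* (733 ± 342 against 175 ± 109) and cytochrome P450 gene *Ccrd_015261* (834 ± 450.3 against 68.4 ± 21.8). The same held for GDSL lipase gene *Ccrd_022620* (1238 ± 841 against 483 ± 91.8), MFS transporter gene *Ccrd_009203* (593 ± 439 against 17.3 ± 10.68), amino acid transporter-type gene *Ccrd_017603* (327 ± 105 against 7.51 ± 8.32) and TCP gene *Ccrd_001770* (195 ± 141 against 15.3 ± 2.82). The spread in L18 was wide in several of these genes, with replicate 1 the highest in both SPX genes and in *Ccrd_015757*. In *Ccrd_017603* the WT replicates had 2.45, 2.96 and 17.1 against 0 in L1, so its step below WT rests on few reads.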

How the results depend on the processing

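The number of genes called between L1 and L18 lay between 5230 (without L1 replicate 1) and 7229 (edgeR likelihood ratio test) over 24 alternatives, with 47.5% to 51.5% of the calls higher in L1. DESeq2 called 7119 genes (6563 of the 6608), the fit on only these 2 lines 6080 (5833) and limma on log2(FPKM + 1) 6325 (5873). Replicate numbers did not pair the samples (correlation of same-numbered deviations -0.05, -0.08 and -0.20), and a fit with the replicate number as a block called 6218 genes, 6105 of them among the 6608. Of the 226 named genes 210 were called, 169 of these in all 24 alternatives and 8 more in every alternative but 1 in which they were not tested, and none reversed. The number of called members of a list moved by over 1.5 times in 35 cases, all with few members called. The 13 differing runs became 30 with windows of 50 genes and 4 with windows of 200. The 18 genes at the floor in 1 line became 11 with at most 1 count and 44 with at most 10 counts as the floor, and 44 with at least 30 and 5 with at least 300 normalized counts in the other line. Genes at the floor have no fold beyond their bound, and 3 replicates of 1 line each limit every comparison to these cultures.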

Other observations

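Some smaller families, picked after their values were seen and so given without a test of the family, also lay to 1 side. The 4 described cysteine dioxygenases, which oxidize cysteine residues and take part in the plant response to low oxygen, were all called higher in L1 (median log2FC 2.33). Of 4 ubiquinol oxidases, the alternative oxidases of mitochondria, 3 were higher in L1 and none in L18 (median 1.30), and of 7 DOG1-domain genes, named for a regulator of seed dormancy in Arabidopsis, 6 were higher in L1 and none in L18 (median 1.89). Of 8 glycosyl transferases of family 14, 7 were higher in L18 and none in L1 (median -1.12).

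Other families picked in the same way were divided. Of 5 purple acid phosphatases, which release phosphate from organic compounds, 3 were higher in L18 and 1 in L1, the latter *Ccrd_013737* with 28.2, 19.5 and 23.8 normalized counts in L1 and 0, 0 and 0.946 in L18, at least 7.55-fold more in L1. Of 3 glycerophosphodiester phosphodiesterases, which break down glycerophosphodiesters from phospholipids, 1 was higher in each line. Gene *Ccrd_012371* had 365, 271 and 669 in L1, 12905, 5510.3 and 6353 in L18, 390.0, 1457 and 1455 in WT and 388, 350.0 and 394 in L24 (log2FC -4.25, edgeR adjusted p = 2.38e-05). Gene *Ccrd_019288* had 1175, 1225 and 1515 in L1 and 465, 266 and 220.5 in L18 (log2FC 2.04, edgeR adjusted p = 2.00e-05).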
